A study of Coturnix japonica with 16 samples.

Results

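Solute carriers are membrane proteins that move sugars, amino acids, organic acids, vitamins, metals and inorganic ions across the plasma membrane and the membranes of organelles, usually down a gradient or coupled to sodium or protons. In the liver they take up nutrients from portal blood, return glucose and other products to it, and exchange metabolites between the cytosol and mitochondria, where the SLC25 family forms the inner membrane carriers. The genes described here are those whose NCBI symbol in Coturnix japonica begins with SLC followed by a digit and that averaged at least 1 CPM, the count of a gene scaled to a common library size, over the 16 birds. SLC41A1, SLC51A, SLC51B, SLC10A1 and SLC4A1 were left out by that rule. Of 286 genes with such a symbol, 4 belonged to the left-out ones and 80 averaged under 1 CPM, which left 202 members among 20308 genes. By the rule on symbols the 202 include 5 genes of proteins that are no carriers, SLC9A3R1, SLC9A3R2, SLC2A4RG, SLC7A6OS and SLC4A1AP. All 202 members were among the 13748 genes tested, as were 21 of the 80 below the limit. Just inside the limit lay SLC31A2 at 1.03 CPM, SLC5A10 at 1.03 CPM and SLC1A2 at 1.12 CPM. Just outside lay SLC8A2 at 0.989 CPM, SLC34A2 at 0.927 CPM and SLC5A8 at 0.92 CPM.

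Japanese quail aged 12 weeks were fasted for 16 hours, received 4 mL/kg of corn oil in 1 gavage into the crop, and gave RNA from the left lobe of the liver. The oil alone was given to 6 birds (solvent), oil with ethinylestradiol at 0.5 mg/kg to 5 birds, and oil with ethinylestradiol at 5 mg/kg to 5 birds. Ethinylestradiol is a synthetic estrogen, and in egg-laying vertebrates estrogens act on the liver to raise yolk precursor synthesis. Light lasted 8 hours of each day and darkness 16 hours for all groups. The labels state neither the birds' sex nor the time between dosing and sampling.

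Library totals were 15172994 to 46192717 estimated counts, of which the members held a mean share of 1.12 ± 0.0815% on solvent (SD over 6 birds), 1.14 ± 0.081% at 0.5 mg/kg and 1.14 ± 0.138% at 5 mg/kg (SD over 5 birds). Values are from whole liver. Hepatocyte markers dominated. Of 12 such markers 10 were in the table, with means from 1.76 CPM for CPS1 to 103793 CPM for albumin. Of 6 kidney tubule markers 5 were in the table, and of 7 markers of intestine or pancreas 4 were, all of them under 1 CPM. Solvent bird 1 stood apart. It had the highest scaling factor, 1.305, and was the highest of the 16 birds for 28 members and the lowest for 33. Next came 5 mg/kg birds 1 and 2, each highest for 21 members, and 5 mg/kg birds 3 and 5, lowest for 24 and 22. The median distance of the members from their mean over all birds was 0.44 on the log2 scale in solvent bird 1, against 0.20 to 0.33 in the other birds. Over all genes it was 0.36 in solvent bird 1, against 0.21 to 0.32 in the others, so this deviation was not confined to the members. With dose as a term, 523 of 613 Z-linked genes tested had a lower fitted level in birds numbered 4 to 6 than in birds numbered 1 to 3. For some members the dose effect is also given within these number classes. Many of these members had a low unadjusted p for a difference between the classes at 5 mg/kg. No member passed that test (lowest adjusted p 0.99 at 5 mg/kg in edgeR's test). In each dosed group the class of 4 to 6 holds birds 4 and 5 only.

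No member passed an adjusted p of 0.05 at 5 mg/kg against solvent, where 0.0436% of all genes tested passed (edgeR's quasi-likelihood test, Benjamini-Hochberg over 13748 genes). The lowest adjusted p of a member was 0.179. DESeq2 called 2 of the 202 members, SLC66A2 and SLC45A3. Over all genes it called 153 of 18899, of which 4170 had no adjusted p. Limma-voom called 0 members and 2 of 13748 genes. An unadjusted p below 0.05 was reached by 36 of the 202 members (17.8%), against 9.76% of all genes tested and 10.2% of the genes that reached 1 CPM. Of the 36, 16 were higher and 20 lower, where 4.95% of all genes were higher and 4.82% lower at that limit. SLC2A4RG, among the 20, encodes no carrier. These shares were not tested against each other, since genes are not independent replicates. The count was 29 without solvent bird 1 and 23 without 5 mg/kg bird 1. It was 21 within the birds numbered 1 to 3, against 7.91% of genes, and 18 within those numbered 4 to 6, against 5.63% of genes. Here and in the other comparisons, the shares of all genes in fits without single birds are not given. The median log2 fold change of the members was -0.04, and that of all genes -0.00.

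At 0.5 mg/kg against solvent, none of the members passed an adjusted p of 0.05 in edgeR's test, nor did any other gene (0% of those tested). The lowest adjusted p of a member was 0.379 in edgeR's test, and DESeq2 and limma-voom called 0 members. Over all genes DESeq2 called 31 of 18899, of which 5607 had no adjusted p, and limma-voom called 0 of 13748. Below an unadjusted p of 0.05 were 24 members (11.9%), against 8.25% of all genes tested and 8.73% of those that reached 1 CPM. They divided into 11 higher and 13 lower, where 3.83% of all genes were higher and 4.42% lower. Among the 24 are 3 genes that encode no carrier, SLC9A3R2 (higher) and SLC2A4RG and SLC7A6OS (lower). The count was 16 without solvent bird 1 and 15 without 0.5 mg/kg bird 2. Within the birds numbered 1 to 3 it was 13, against 5.53% of genes, and within those numbered 4 to 6 it was 7, against 4.78% of genes. The members' median log2 fold change was 0.00, and that of all genes -0.02. The 2 dose comparisons share the 6 solvent birds, so values that lie on the same side in both are not independent of each other.

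**Figure D1:**
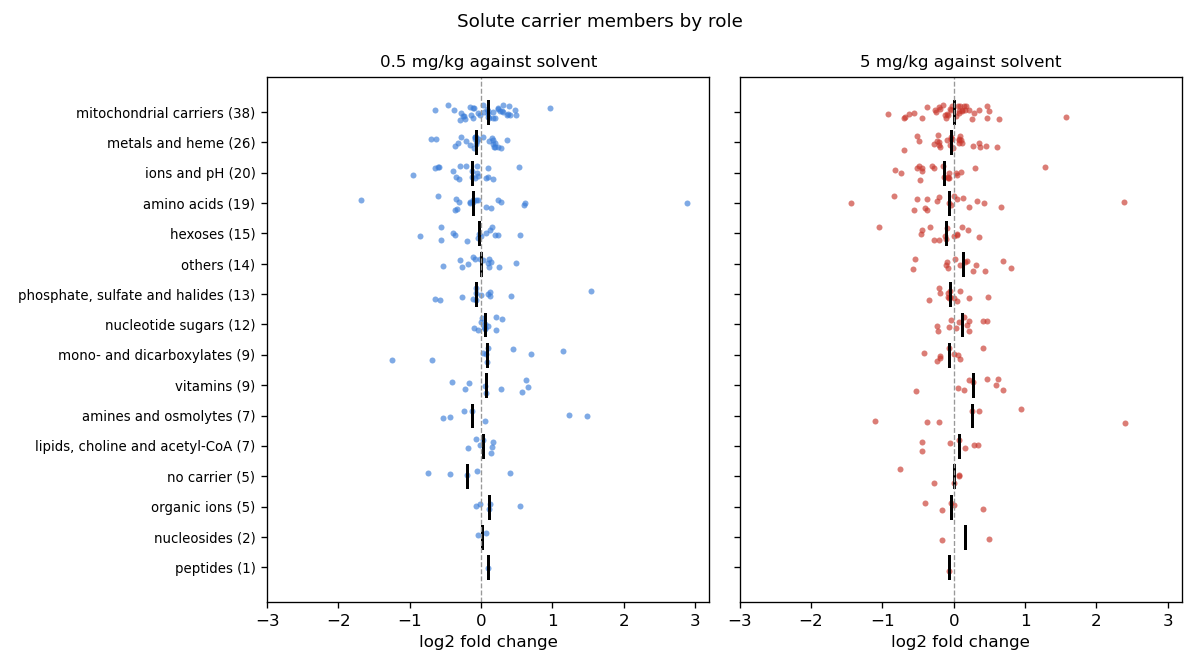
Log2 fold change of each of the 202 members (points) at 0.5 mg/kg against solvent (left) and at 5 mg/kg against solvent (right), by role, with the number of members in parentheses and the median of a role as a black bar; the vertical position within a row is arbitrary. Most members lie near 0, and 15 of the 20 ion and pH carriers lie below 0 at either dose. SLC9B2 of the SLC9 family is counted with the others, not with the ion and pH carriers. Above 0 lie 8 of the 9 vitamin carriers at 5 mg/kg and 6 of the 9 at 0.5 mg/kg.

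Among the hexose carriers, none of 15 members passed the test at either dose, and their median log2 fold change was -0.03 at 0.5 mg/kg and -0.11 at 5 mg/kg. SLC2A2 encodes GLUT2, the main glucose carrier of hepatocytes. Its level ran from 117 to 268 CPM in solvent birds with a median of 189.6 CPM, and was 190.0, 236, 187, 208 and 237 CPM at 0.5 mg/kg and 249, 160.2, 297, 125 and 93.6 CPM at 5 mg/kg. The groups overlapped, and the log2 fold change at 5 mg/kg was 0.01 with a 95% interval of -0.58 to 0.59. Within the number classes it was -0.69 for birds 4 to 6 and 0.28 for birds 1 to 3. SLC2A1, encoding GLUT1, averaged 20.4 ± 9.27 CPM at 5 mg/kg and 17.8 ± 3.49 CPM in solvent birds, with log2 fold changes of -0.30 in birds 4 to 6 and 0.51 in birds 1 to 3. SLC2A9, a carrier of urate as well as hexoses, averaged 146 ± 40.6 CPM at 0.5 mg/kg and 100.4 ± 17.4 CPM in the solvent group (log2 fold change 0.54, SE 0.22, adjusted p 0.553 in edgeR's test). SLC37A4, the glucose 6-phosphate carrier of the endoplasmic reticulum that glucose output requires, averaged 309.9 ± 83.7 CPM at 5 mg/kg and 328 ± 43.4 CPM in solvent birds, with an interval of -0.45 to 0.28 on the log2 scale.

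SLC45A3, a member of a sugar carrier family, was the hexose member that stood farthest below solvent. It had 1.42, 3.29, 3.09, 2.46 and 1.76 CPM at 5 mg/kg, against 3.66 to 8.25 CPM in solvent birds with a median of 4.04 CPM. Every 5 mg/kg bird lay below every solvent bird. As a log2 fold change this was -1.05 (SE 0.30, adjusted p 0.228 in edgeR's test), and DESeq2 gave an adjusted p of 0.0461. The 0.5 mg/kg birds had 4.58, 2.85, 2.17, 1.96 and 2.31 CPM, and bird 1 lay within the solvent range (log2 fold change -0.86, SE 0.30, adjusted p 0.525 in edgeR's test). In the 5 mg/kg comparison 3 members (1.49%) did not overlap between groups, where 0.967% of all genes did not. The other two were SLC29A3 and SLC2A4RG.

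SLC2A4RG encodes a regulator of the GLUT4 gene and is no carrier. It had 4.12, 2.06, 4.08, 2.52 and 4.04 CPM at 5 mg/kg and 3.43, 2.58, 3.3, 3.66 and 3.83 CPM at 0.5 mg/kg, against 4.38 to 8.18 CPM in solvent birds. Both dosed groups lay below every solvent bird. This gave a log2 fold change of -0.75 (SE 0.22) at either dose, with adjusted p of 0.251 at 5 mg/kg and 0.411 at 0.5 mg/kg in edgeR's test. SLC29A3, a nucleoside carrier of lysosomes, had 4.86, 5.03, 3.97, 4.85 and 5.04 CPM at 5 mg/kg, against 2.39 to 3.92 CPM in solvent birds. All 5 lay above the solvent range, with bird 3 close to its upper end (log2 fold change 0.49, SE 0.21, adjusted p 0.453 in edgeR's test).

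The member with the lowest p at 5 mg/kg was SLC66A2, a PQ-loop membrane protein. It had 121, 214, 109.7, 193 and 203 CPM at 5 mg/kg, against 70.4 to 119.9 CPM in solvent birds with a median of 98.8 CPM. Birds 2, 4 and 5 lay well above the solvent range, bird 1 lay just above it and bird 3 within it. On the log2 scale the fold change was 0.80 (SE 0.21, 95% interval 0.35 to 1.24), with an adjusted p of 0.179 in edgeR's test and 0.0285 in DESeq2. It was 0.80 in the birds numbered 4 to 6 and 0.89 in those numbered 1 to 3. The 0.5 mg/kg birds had 98.7, 165, 109, 149 and 155 CPM (log2 fold change 0.49, SE 0.21, adjusted p 0.583 in edgeR's test).

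**Figure D2:**
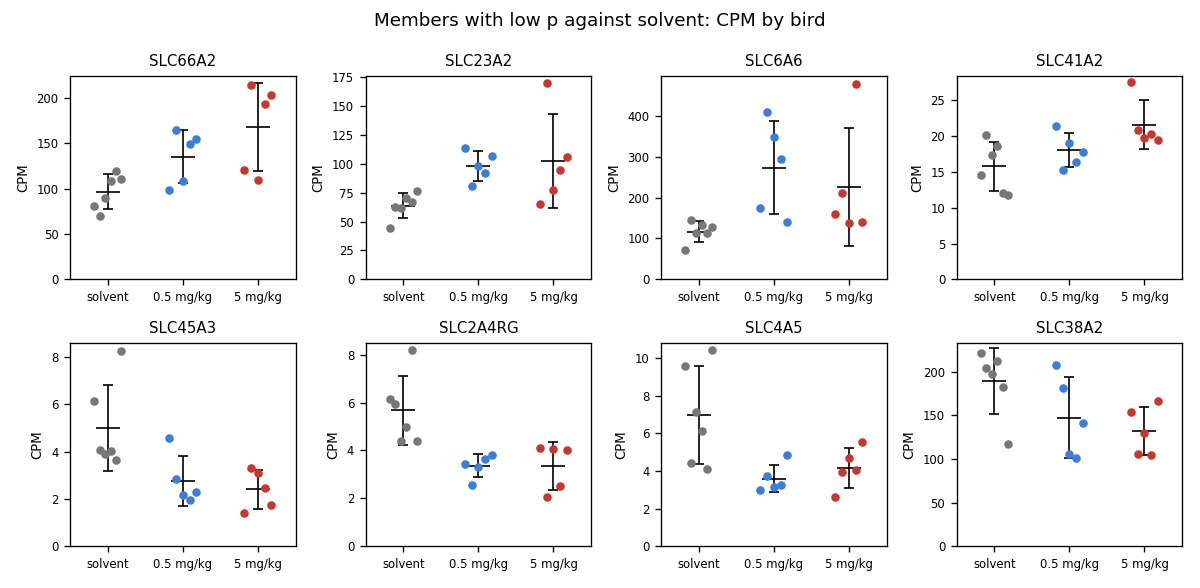
CPM of 8 members in every bird (points) by dose, with the mean and SD of each group in black, each vertical axis starting at 0. SLC66A2, SLC23A2, SLC6A6 and SLC41A2 have higher means in dosed birds, SLC45A3, SLC2A4RG, SLC4A5 and SLC38A2 lower means, and none of the 8 passed an adjusted p of 0.05 in edgeR's test.

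The vitamin carriers were 9 members with a median log2 fold change of 0.27 at 5 mg/kg and 0.07 at 0.5 mg/kg, against -0.00 and -0.02 for all genes. Of the 9, 8 lay above 0 at 5 mg/kg, where 49.8% of all genes did, and 6 at 0.5 mg/kg, where 46.9% did. With single birds left out, the 5 mg/kg value of SLC5A6 ran from -0.13 to 0.20 and that of SLC46A3 from -0.07 to 0.26. The rest of the 8 stayed above 0. SLC23A2 encodes a sodium-coupled carrier of ascorbate, the reduced form of vitamin C. It had 64.9, 169.7, 77, 94.4 and 106 CPM at 5 mg/kg, against 44.7 to 76.7 CPM in solvent birds with a median of 64.8 CPM. Birds 2, 4 and 5 lay clearly above the solvent range, bird 3 at its upper edge and bird 1 within it. The resulting log2 fold change was 0.69 (SE 0.21, adjusted p 0.271 in edgeR's test), and leaving out single birds gave 0.43 to 0.81. The 0.5 mg/kg birds had 114, 80.4, 98, 91.9 and 107 CPM, all above every solvent bird (log2 fold change 0.63, SE 0.21, adjusted p 0.487 in edgeR's test). In that comparison 3 members (1.49%) did not overlap, where 1.52% of all genes did not, and the other two were SLC26A2 and SLC2A4RG.

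SLC19A1, the reduced folate carrier, had 131, 69.5, 60.4, 41.4 and 81.5 CPM at 5 mg/kg, against 29.5 to 60 CPM in solvent birds. The lowest solvent value was that of bird 1. Fitted over all birds, the log2 fold change was 0.62 (SE 0.24, adjusted p 0.397 in edgeR's test), 0.50 without solvent bird 1 and 0.34 without 5 mg/kg bird 1. It was 0.21 in birds 4 to 6 and 0.87 in birds 1 to 3. SLC19A2, a thiamine carrier, ran from 4.41 CPM in solvent bird 1 to 32 CPM in solvent bird 4, and its log2 fold change at 5 mg/kg was 0.59 with all birds, 0.38 without solvent bird 1 and 0.23 without 5 mg/kg bird 2. Within the classes it was -0.23 in birds 4 to 6 and 1.20 in birds 1 to 3. SLC46A3, a carrier of lysosomal membranes, averaged 53.2 ± 10.9 CPM at 0.5 mg/kg and 33.7 ± 11.9 CPM in the solvent group (log2 fold change 0.66, and 0.49 without solvent bird 1).

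Among the 7 carriers of amines and osmolytes, the taurine carrier SLC6A6 had the lowest p at 0.5 mg/kg. Taurine is an osmolyte of cells and a partner in bile acid conjugation. SLC6A6 had 175, 409.6, 348, 294 and 141 CPM at 0.5 mg/kg, against 70.8 to 144 CPM in solvent birds with a median of 121 CPM. In 0.5 mg/kg birds 1 to 4 it lay above the solvent range, and in bird 5 at its upper edge. As a log2 fold change this was 1.23 (SE 0.34, 95% interval 0.50 to 1.95, adjusted p 0.379 in edgeR's test) and 1.11 without solvent bird 1. The 5 mg/kg birds had 159, 211, 139, 477 and 141 CPM. The log2 fold change there was 0.94 (SE 0.34, adjusted p 0.351 in edgeR's test), and leaving out single birds gave 0.47 to 1.08. The direct comparison of 5 mg/kg with 0.5 mg/kg gave -0.28 with an interval of -1.04 to 0.48.

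SLC6A2, the noradrenaline carrier, had 13.1, 6.67, 0, 8.21 and 5.56 CPM at 5 mg/kg, against 0.0231 to 3.78 CPM in solvent birds. In 4 of 5 birds it lay above every solvent bird, and in bird 3 no count was recorded (log2 fold change 2.40, SE 0.96, adjusted p 0.422 in edgeR's test). SLC6A2 lies beside SLC12A4 on chromosome 11, whose log2 fold change was -0.08. SLC18B1, a vesicular polyamine carrier counted among the other carriers, had 15.5, 13.8, 12.4, 13.6 and 18.3 CPM at 5 mg/kg, against 8.3 to 13.8 CPM in solvent birds. As a log2 fold change this was 0.80 in the birds numbered 4 to 6 and 0.14 in those numbered 1 to 3, and 0.44 over all (SE 0.15, adjusted p 0.338 in edgeR's test).

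The amino acid carriers were 19 members, of which none passed the test at either dose. Their median log2 fold change was -0.06 at 5 mg/kg, and 7 had an unadjusted p below 0.05, of which 2 were higher and 5 lower, against 4.95% of all genes higher and 4.82% lower. SLC38A3 encodes SNAT3, a system N carrier of glutamine in hepatocytes. It had 369.7, 290.3, 261, 452 and 365 CPM at 5 mg/kg, against 428 to 723 CPM in solvent birds with a median of 472 CPM. In 4 of 5 birds it lay below the solvent range, and bird 4 lay within it. This gave a log2 fold change of -0.55 (SE 0.17, 95% interval -0.91 to -0.19, adjusted p 0.278 in edgeR's test), with -0.20 in the birds numbered 4 to 6 and -0.84 in those numbered 1 to 3. At 0.5 mg/kg the values were 476, 509, 432, 457 and 553 CPM, all inside the solvent range.

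SLC38A2 and SLC38A4, which encode the system A carriers SNAT2 and SNAT4 for small neutral amino acids, are neighbours on chromosome 1 next to SLC38A1. SLC38A2 had 154, 106, 130, 105 and 166 CPM at 5 mg/kg, against 117 to 221 CPM in solvent birds, with 117 CPM in solvent bird 6 and the others at 182 CPM or more. On the log2 scale the fold change was -0.51 (SE 0.21, adjusted p 0.445 in edgeR's test). SLC38A4 had 727, 1444, 649, 1551 and 552 CPM at 5 mg/kg, against 565 to 1220 CPM in the solvent group (log2 fold change 0.22, interval -0.37 to 0.82). At 0.5 mg/kg SLC38A4 had 1292, 1519, 1112, 1179 and 1293 CPM, with 3 birds above every solvent bird and the other two below the highest solvent bird only (log2 fold change 0.60, SE 0.28, adjusted p 0.6 in edgeR's test). For SLC38A1 the log2 fold changes were 0.28 at 0.5 mg/kg and 0.42 at 5 mg/kg, so the 3 neighbours did not lie on one side. Other neighbours did, as SLC25A29 and SLC25A47 (-0.92 and -0.68 at 5 mg/kg) and SLC7A6 and SLC7A6OS (-0.37 and -0.27), which lay below 0 at either dose. SLC12A4 with SLC6A2, and SLC25A5 with SLC25A43, shared a side at a single dose only. SLC7A5, encoding the large neutral amino acid carrier LAT1, averaged 14.1 ± 2.54 CPM at 5 mg/kg and 14 ± 2.6 CPM in solvent birds, with an interval of -0.40 to 0.43 on the log2 scale.

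In some amino acid carriers the value rested on single birds. SLC6A14, a carrier of neutral and basic amino acids, reached 24.4 CPM in 0.5 mg/kg bird 3 and 17.4 CPM in 5 mg/kg bird 2. The other dosed birds had 0.775 to 5.7 CPM, and solvent birds 0.479 to 1.49 CPM. Its log2 fold change at 0.5 mg/kg was 2.89 (SE 0.90, adjusted p 0.461 in edgeR's test), and leaving out single birds gave 1.39 to 3.16. At 5 mg/kg it was 2.39, with 0.83 to 2.67 when single birds were left out. SLC1A2, a glutamate carrier, had 6.25 CPM in solvent bird 1 and at most 1.29 CPM in every other bird. Its mean of 1.12 CPM reached the limit of 1 CPM only through that bird. SLC1A2 is nonetheless counted as lower among the 36 members at 5 mg/kg and the 24 at 0.5 mg/kg, so its place in those counts is no support for an effect of dose. Its log2 fold change at 5 mg/kg was -1.44 with that bird and -0.33 without it, and at 0.5 mg/kg -1.68 with it and -0.57 without it.

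The direct comparison of the doses asked which members separate 5 mg/kg from 0.5 mg/kg. No member passed an adjusted p of 0.05, nor did any other gene (0% of those tested), and the lowest adjusted p of a member was 0.471 in edgeR's test. DESeq2 and limma-voom called 0 members here too. Over all genes DESeq2 called 26 of 18899, of which 1995 had no adjusted p, and limma-voom called 0 of 13748. Unadjusted p fell below 0.05 for 16 members (7.92%), against 7.25% of all genes and 7.47% of those that reached 1 CPM. Here 6 were higher and 10 lower, where 3.93% of all genes were higher and 3.32% lower. The count was 10 without 0.5 mg/kg bird 4, 10 without 5 mg/kg bird 5 and 30 without 5 mg/kg bird 4. Groups did not overlap for 5 members (2.48%), where 1.19% of all genes did not overlap. They were SLC7A1, which lay higher at 5 mg/kg, and SLC25A15, SLC25A25, SLC26A1 and SLC43A3, which lay lower.

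SLC7A1 encodes CAT1, the widespread plasma membrane carrier of basic amino acids. It had 7.38, 7.21, 6.89, 4.33 and 8.6 CPM at 5 mg/kg, against 3.5, 2.65, 3.83, 3.76 and 3.49 CPM at 0.5 mg/kg. The resulting log2 fold change was 1.0 (SE 0.32, 95% interval 0.31 to 1.68, adjusted p 0.55 in edgeR's test). Solvent birds ran from 2.21 to 8.88 CPM and spanned both dosed groups. The highest of them was bird 1, and the log2 fold change at 5 mg/kg against solvent was 0.66 with that bird (adjusted p 0.486 in edgeR's test) and 1.0 without it.

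SLC7A2 encodes CAT2, the basic amino acid carrier that mammalian hepatocytes carry in quantity. It had 189, 207, 80.4, 368 and 108 CPM at 5 mg/kg, against 374, 482, 349, 194 and 521 CPM at 0.5 mg/kg. In 4 of 5 birds of 5 mg/kg the value lay below 349 CPM, and the groups overlapped through 1 bird on each side (log2 fold change -1.01, SE 0.34, adjusted p 0.559 in edgeR's test). Solvent birds had 186 to 336 CPM, overlapping both. SLC25A15, the mitochondrial ornithine carrier, had 3.72, 5.37, 9.37, 8.6 and 9.31 CPM at 5 mg/kg, against 18.5, 16, 12.5, 9.48 and 12.9 CPM at 0.5 mg/kg. The groups were parted by a gap from 9.37 to 9.48 CPM (log2 fold change -0.93, SE 0.31, adjusted p 0.55 in edgeR's test). Within the number classes it was -0.33 in birds 4 to 6 and -1.35 in birds 1 to 3. SLC25A29, a mitochondrial carrier of basic amino acids, had a log2 fold change of -0.27 between the doses. Against solvent, it averaged 49.1 ± 23.8 CPM at 5 mg/kg and 92.9 ± 31.2 CPM in solvent birds, and its log2 fold change of -0.92 (SE 0.36, adjusted p 0.41 in edgeR's test) was -0.04 in birds 4 to 6 and -1.74 in birds 1 to 3.

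**Figure D3:**
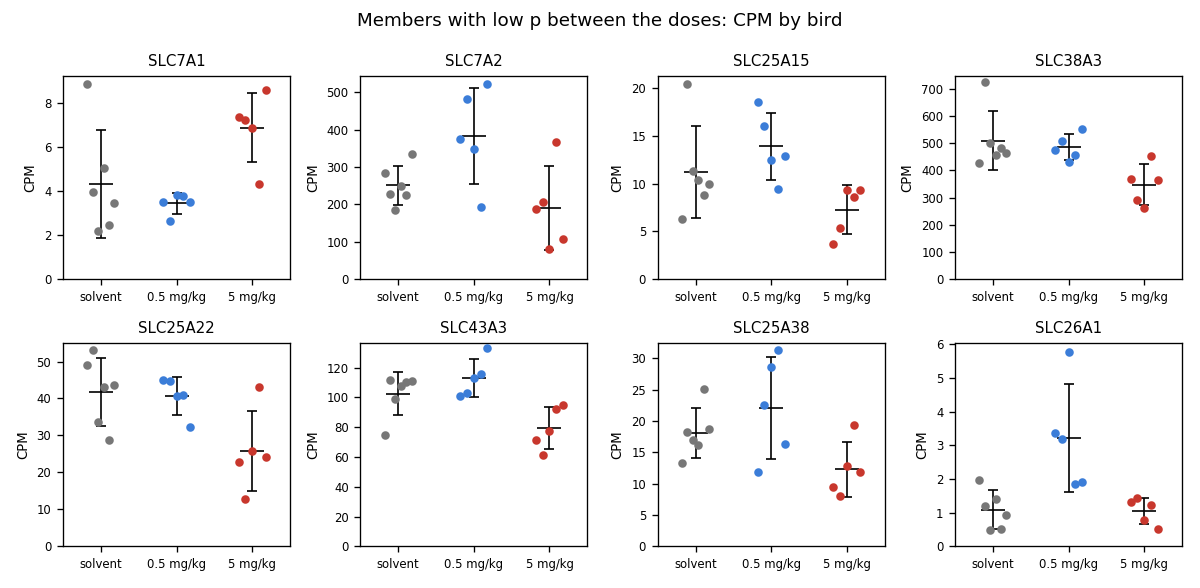
CPM of 8 members in every bird (points) by dose, with the mean and SD of each group in black, each vertical axis starting at 0. SLC7A1 lies higher at 5 mg/kg than at 0.5 mg/kg in every bird, and SLC25A15, SLC43A3 and SLC26A1 lie lower in every bird. The solvent range overlaps both dosed groups for each of these members.

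SLC43A3, listed here with the amino acid carriers by its family and known as a purine nucleobase carrier, had 71.5, 61.6, 77.6, 92.1 and 94.7 CPM at 5 mg/kg, against 101, 103, 113, 116 and 133 CPM at 0.5 mg/kg. The groups did not overlap (log2 fold change -0.51, SE 0.15, 95% interval -0.82 to -0.20, adjusted p 0.533 in edgeR's test). Solvent bird 1 had 74.5 CPM and the other solvent birds 99.2 to 112 CPM, so the log2 fold change at 5 mg/kg against solvent was -0.37 with that bird and -0.44 without it. SLC26A1, a Z-linked sulfate and oxalate exchanger, had 1.31, 1.45, 0.781, 1.23 and 0.523 CPM at 5 mg/kg, against 3.36, 3.19, 5.78, 1.86 and 1.9 CPM at 0.5 mg/kg. It lay lower in every 5 mg/kg bird (log2 fold change -1.59, SE 0.43, adjusted p 0.471 in edgeR's test). Solvent birds had 0.498 to 1.98 CPM, and at 0.5 mg/kg against solvent the log2 fold change was 1.54 (SE 0.40, adjusted p 0.379 in edgeR's test and 0.05 in DESeq2). SLC26A2, a sulfate carrier mutated in human cartilage disorders, had 19.9, 19.4, 18.5, 22.1 and 24.1 CPM at 0.5 mg/kg, against 24.7 to 46.9 CPM in solvent birds. Its groups did not overlap (log2 fold change -0.64, SE 0.20, adjusted p 0.456 in edgeR's test).

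The mitochondrial carriers were the largest group, with 38 members, and none passed the test. Their median log2 fold change was 0.09 at 0.5 mg/kg and 0.01 at 5 mg/kg. The member with the most counts was SLC25A6, an ADP/ATP exchanger. It had 1840, 2336, 1536, 1513 and 793 CPM at 5 mg/kg, against 766 to 1357 CPM in solvent birds, so that 4 of 5 birds lay above the solvent range and bird 5 near its lower end. Fitted over all birds, the log2 fold change was 0.46 with an interval of -0.04 to 0.96, and it was -0.19 in the birds numbered 4 to 6 and 0.89 in those numbered 1 to 3. SLC25A3, the phosphate carrier, averaged 644 ± 127 CPM at 5 mg/kg and 575 ± 120.4 CPM in solvent birds, with log2 fold changes of -0.27 in birds 4 to 6 and 0.52 in birds 1 to 3.

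SLC25A1 exports citrate for fatty acid synthesis, and SLC25A20 imports acylcarnitines for fatty acid oxidation. SLC25A1 had 557, 554, 536, 359.8 and 582 CPM at 5 mg/kg, against 398 to 470.2 CPM in solvent birds. In 4 of 5 birds it lay above the solvent range and in bird 4 below it (log2 fold change 0.26, interval -0.15 to 0.67). SLC25A20 had 289.5, 296, 193, 205 and 170.3 CPM at 5 mg/kg, against 106 to 208 CPM in the solvent group (log2 fold change 0.46, SE 0.20, adjusted p 0.481 in edgeR's test). As a log2 fold change this was 0.02 in the birds numbered 4 to 6 and 0.78 in those numbered 1 to 3. SLC25A13, the aspartate and glutamate exchanger citrin, averaged 205 ± 19.9 CPM at 5 mg/kg and 189 ± 36.3 CPM in solvent birds, with an interval of -0.20 to 0.43.

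SLC25A22, a glutamate carrier, had 22.8, 12.9, 25.9, 43.1 and 24.2 CPM at 5 mg/kg, against 28.7 to 53 CPM in solvent birds. All but bird 4 lay below the solvent range (log2 fold change -0.70, SE 0.23, adjusted p 0.327 in edgeR's test), and the value was -0.21 in the birds numbered 4 to 6 and -1.14 in those numbered 1 to 3. SLC25A25, an exchanger of ATP-magnesium for phosphate, had 202, 168, 182, 206 and 216 CPM at 0.5 mg/kg, against 55.8 to 213 CPM in solvent birds. A single solvent bird, bird 2 at 213 CPM, lay within the range of the 0.5 mg/kg birds, and the others had at most 98.7 CPM (log2 fold change 0.97, SE 0.33, adjusted p 0.522 in edgeR's test). The 5 mg/kg birds had 86.4, 164, 54.7, 164 and 86.3 CPM, below every 0.5 mg/kg bird. SLC25A30, named for its discovery in kidney, had 6.36, 11, 20.6, 3.36 and 12.8 CPM at 5 mg/kg, against 1.52 to 9.5 CPM in solvent birds. The 9.5 CPM was that of solvent bird 1, and the log2 fold change was 1.58 with it (SE 0.56, adjusted p 0.351 in edgeR's test) and 2.15 without it.

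SLC25A38 imports glycine into mitochondria for heme synthesis and is most abundant in red cell precursors. It had 9.54, 7.98, 12.9, 19.3 and 11.8 CPM at 5 mg/kg, against 11.9, 22.5, 28.6, 31.3 and 16.3 CPM at 0.5 mg/kg (log2 fold change -0.85, SE 0.27, adjusted p 0.55 in edgeR's test). The mitochondrial iron importer SLC25A37 averaged 31.3 ± 13.3 CPM at 5 mg/kg and 52.7 ± 23.9 CPM at 0.5 mg/kg. Of 12 erythroid markers, 4 were in the table, none of them at 0 in every bird. Their summed level was 123 to 378 CPM in solvent birds, 106 to 552 CPM at 0.5 mg/kg and 57.1 to 423 CPM at 5 mg/kg, and 4 of 4 lay below 0 at 5 mg/kg against solvent (median log2 fold change -0.53) and above 0 at 0.5 mg/kg (median 0.30). Their part in these results was not tested. In whole liver, fewer cells of a type and less RNA per cell cannot be told apart.

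The 26 members that carry metals or heme had a median log2 fold change of -0.06 at 0.5 mg/kg and -0.03 at 5 mg/kg, and none passed the test. SLC41A2, a magnesium carrier, had 27.6, 20.8, 19.8, 20.3 and 19.4 CPM at 5 mg/kg, against 11.8 to 20.1 CPM in solvent birds with a median of 16 CPM. Of the 5 birds 3 lay above the solvent range, and the other two at its upper edge (log2 fold change 0.45, SE 0.15, adjusted p 0.329 in edgeR's test). SLC41A1, its paralog left out by the rule, passed the test at 5 mg/kg (log2 fold change 1.64, adjusted p 0.0472 in edgeR's test). SLC39A8, which carries zinc, manganese and iron, had 17.5, 20.7, 11.8, 25.8 and 24 CPM at 5 mg/kg, against 20 to 43.6 CPM in the solvent group (log2 fold change -0.70, SE 0.26, adjusted p 0.357 in edgeR's test).

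SLC40A1 encodes ferroportin, the only known cellular iron exporter of vertebrates. It averaged 291 ± 54.2 CPM at 5 mg/kg and 338 ± 34.2 CPM in solvent birds, with an interval of -0.52 to 0.08. SLC39A14 and SLC30A10, an importer and an exporter of manganese, had intervals of -0.16 to 0.88 and -0.73 to 0.67 at 5 mg/kg. SLC11A1 encodes NRAMP1, a metal carrier of macrophage phagosomes. It had 10.4, 9.98, 11.1, 13.3 and 8.57 CPM at 0.5 mg/kg, against 12.2 to 26.7 CPM in solvent birds, and only bird 4 reached the solvent range (log2 fold change -0.70, SE 0.26, adjusted p 0.536 in edgeR's test). Of 12 macrophage markers 9 were in the table and tested, none of them at 0 in every bird, and 9 of 9 lay below 0 at either dose, with medians of -0.32 at 0.5 mg/kg and -0.42 at 5 mg/kg. Their summed level was 496 to 1167 CPM in solvent birds, 326 to 813 CPM at 0.5 mg/kg and 419 to 578 CPM at 5 mg/kg. Their part in the values of SLC11A1 was not tested.

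Among the 20 carriers of ions and of acid and base, 5 lay above 0 and 15 below it at either dose, where 46.9% of all genes lay above 0 at 0.5 mg/kg and 49.8% at 5 mg/kg. Their medians were -0.13 at 0.5 mg/kg and -0.14 at 5 mg/kg. No member passed the test, and at 5 mg/kg the unadjusted p was below 0.05 for 4 members, all lower, against 4.82% of all genes lower. SLC9B2, also of the SLC9 family, was counted among the other carriers and went the other way. It was higher at 5 mg/kg with an unadjusted p below 0.05 in edgeR's test, and leaving out single birds gave log2 fold changes of 0.51 to 0.83. SLC4A5, a sodium bicarbonate cotransporter, had 3, 3.74, 3.17, 3.26 and 4.82 CPM at 0.5 mg/kg, against 4.12 to 10.4 CPM in solvent birds with a median of 6.63 CPM. All but bird 5 lay below the solvent range (log2 fold change -0.95, SE 0.26, adjusted p 0.379 in edgeR's test). At 5 mg/kg it had 2.62, 3.95, 4.69, 4.07 and 5.51 CPM (log2 fold change -0.74, SE 0.26, adjusted p 0.334 in edgeR's test). The sodium-proton exchangers SLC9A5 and SLC9A9 had log2 fold changes at 5 mg/kg of -0.83 and -0.52. In both genes the highest value of all birds was that of solvent bird 1, and without it the values were -0.65 and -0.36. Endothelial markers also lay below 0 in 11 of 12 cases at either dose, with summed levels of 158 to 228 CPM in solvent birds, 143 to 202 CPM at 0.5 mg/kg and 103 to 211 CPM at 5 mg/kg, and their part was not tested.

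Of the 9 mono- and dicarboxylate carriers none stood at an unadjusted p under 0.05 against solvent. SLC16A1, encoding the lactate and ketone body carrier MCT1, had 192, 427, 106, 72.7 and 71.9 CPM at 5 mg/kg, against 112 to 169.9 CPM in solvent birds. Birds 1 and 2 lay above the solvent range and the other three below it. Its log2 fold change was 0.41 over all, -0.71 in the birds numbered 4 to 6 and 0.74 in those numbered 1 to 3, and leaving out 5 mg/kg bird 2 turned the value over all to -0.24. The difference of the dose effect between the number classes was tested across all genes. No member passed (lowest adjusted p 0.99 at 5 mg/kg and 1 at 0.5 mg/kg in edgeR's test), and 10 members (4.95%) stood at an unadjusted p under 0.05 at 5 mg/kg and 2 (0.99%) at 0.5 mg/kg, against 4.15% and 3.02% of all genes.

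SLC16A6, a carrier of ketone bodies shown in zebrafish liver, had 0.374, 0.907, 1.09, 5.17 and 0.76 CPM at 5 mg/kg, against 3, 9.3, 3.52, 6.67 and 1.06 CPM at 0.5 mg/kg (log2 fold change -1.55, SE 0.65, adjusted p 0.647 in edgeR's test). It was -2.58 without 5 mg/kg bird 4 and -1.15 without 0.5 mg/kg bird 2, and -0.40 in birds 4 to 6 and -2.74 in birds 1 to 3. SLC13A5, the citrate importer of mammalian hepatocytes, averaged 1.26 ± 1.23 CPM at 5 mg/kg and 1.48 ± 1.25 CPM in solvent birds with an interval of -1.56 to 1.08 on the log2 scale. Solvent bird 1 had 3.81 CPM, and without it the log2 fold change at 5 mg/kg turned to 0.30 in place of -0.24, and that at 0.5 mg/kg to -0.70 in place of -1.25. SLC33A1, the acetyl-CoA carrier of the endoplasmic reticulum, had 36.1, 37.5, 28.6, 32.8 and 40.1 CPM at 5 mg/kg, against 37.9 to 59.5 CPM in the solvent group (log2 fold change -0.44, SE 0.16, adjusted p 0.355 in edgeR's test). SLC27A4, a fatty acid transport protein, averaged 84 ± 14.8 CPM at 5 mg/kg and 80.3 ± 16.6 CPM in solvent birds.

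The 12 nucleotide sugar carriers of the endoplasmic reticulum and Golgi, which supply glycosylation, glucuronidation and sulfation, had medians of 0.05 at 0.5 mg/kg and 0.12 at 5 mg/kg. SLC35D1, which carries UDP-glucuronic acid, had 96.7, 99.6, 62.1, 88.4 and 79.9 CPM at 5 mg/kg, against 31.1 to 79.1 CPM in solvent birds. All but bird 3 lay above the solvent range (log2 fold change 0.46, SE 0.19, adjusted p 0.45 in edgeR's test), and the value was 0.33 without solvent bird 1. SLC20A1, a phosphate carrier, was among the steadiest members, with 134 ± 15.3 CPM in solvent birds, 134 ± 11.3 CPM at 0.5 mg/kg and 129 ± 15.2 CPM at 5 mg/kg, and an interval of -0.30 to 0.19 at 5 mg/kg.

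Birds numbered 4 to 6 (n = 7) were set against those numbered 1 to 3 (n = 9) with the dose as a term. The class of numbers was chosen from Z-linked transcripts of these libraries, so the 10 Z-linked members are described without a test. Of these, 9 had a log2 fold change below 0, with a median of -0.23, and 613 Z-linked genes had a median of -0.46, 523 of them below 0. Z-linked SLC44A1, a choline carrier, had 15.5 to 24.8 CPM in birds 4 to 6 and 24.8 to 33.9 CPM in birds 1 to 3 (log2 fold change -0.54). Before rounding, its classes did not overlap. Of all genes 0.713% did not overlap, but the classes were chosen from Z-linked genes, whose share is not given. SLC38A9, a lysosomal arginine sensor, had 3.21 to 6.53 CPM in birds 4 to 6 and 5.73 to 9.64 CPM in birds 1 to 3 (log2 fold change -0.80). SLC1A1, a glutamate carrier, was the Z-linked member above 0, at 0.23.

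**Figure D4:**
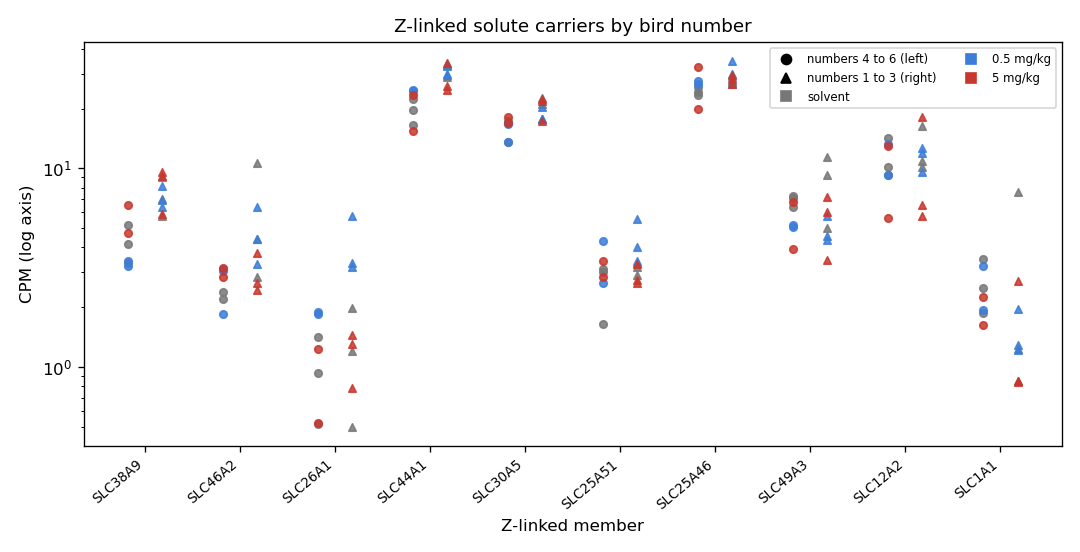
CPM (log axis) of the 10 Z-linked members in every bird, with the 7 birds numbered 4 to 6 as circles on the left and the 9 numbered 1 to 3 as triangles on the right of each gene, coloured by dose. SLC44A1 lies lower in every bird numbered 4 to 6 than in any bird numbered 1 to 3, SLC38A9 overlaps through 1 bird at 5 mg/kg, and SLC49A3, SLC12A2 and SLC1A1 overlap widely.

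Of the 192 members not placed on Z, none passed an adjusted p of 0.05, where 0.137% of the genes not placed on Z did, and 21 (10.9%) stood at an unadjusted p under 0.05, against 7.44% of these genes and 7.54% of those that reached 1 CPM. SLC39A8 came closest, with 24 to 48.6 CPM in birds 4 to 6 and 11.8 to 35.6 CPM in birds 1 to 3 (log2 fold change 0.58, SE 0.16, adjusted p 0.115 in edgeR's test). Without solvent bird 1 it passed, at 0.68 with an adjusted p of 0.0466. DESeq2 passed SLC39A8 (adjusted p 0.04) and SLC12A5 (log2 fold change -1.74, adjusted p 0.013). Over all genes, Z-linked ones included, DESeq2 called 320 of 18899, of which 4549 had no adjusted p. SLC12A5, a potassium chloride cotransporter known from neurons, had 0.259 to 0.797 CPM in birds 4 to 6 and 0.302 to 4.49 CPM in birds 1 to 3. SLC22A4, the ergothioneine carrier, had 4.55 to 12.2 CPM in birds 4 to 6 and 2.29 to 6.74 CPM in birds 1 to 3 (log2 fold change 0.75, SE 0.24, adjusted p 0.257 in edgeR's test).

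Spread was also taken among the birds on solvent alone, which received no estrogen. Solvent bird 1, which stood apart, is included, and no SD without it is given. The SD of log2 CPM over the 6 solvent birds had a median of 0.34 for the members and 0.35 for all genes tested. It exceeded 1 for 8 members (3.96%) and for 7.11% of all genes. The members all reached 1 CPM, as did 11832 of the 13748 genes tested. The share among those 11832 genes is not given, so the 2 percentages are not alike in level. The widest was SLC6A2 at 2.10. SLC16A3, which encodes the lactate exporter MCT4, had 0.461 CPM in solvent bird 1 and 8.58 CPM in solvent bird 3. SLC39A5, a zinc importer, ran from 2.35 to 21 CPM, again lowest in solvent bird 1.

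**Figure D5:**
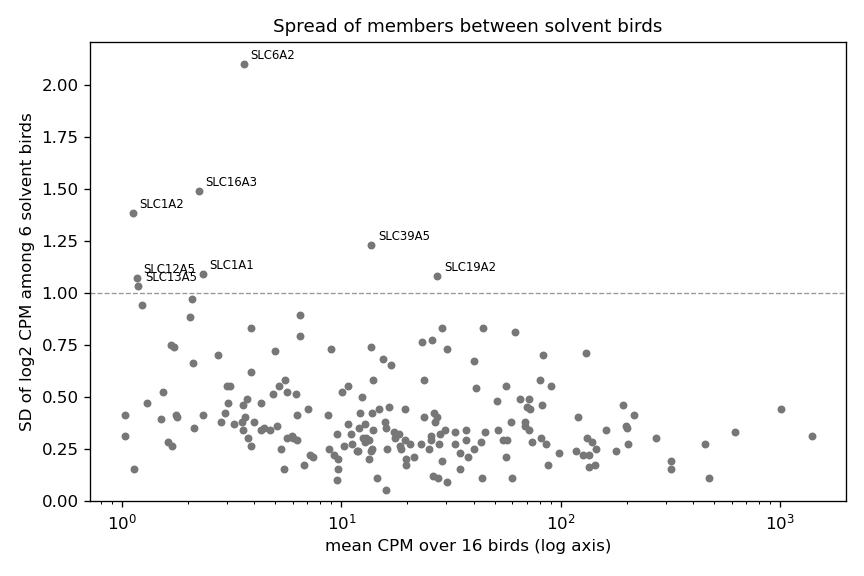
SD of log2 CPM among the 6 solvent birds against the mean CPM over all 16 birds (log axis) for the 202 members, with the 8 widest labelled and a dashed line at an SD of 1. The widest, SLC6A2, SLC16A3 and SLC1A2, average under 5 CPM, while SLC39A5 and SLC19A2 vary widely at higher means.

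Other transport genes that are no members gave 0 calls at either dose in edgeR's test among 32 ABC transporters, 5 SLCO carriers, 11 P-type pumps, 4 aquaporins and 17 subunits of the V-type proton pump. At 5 mg/kg against solvent, unadjusted p was under 0.05 for 2 ABC transporters (higher), 1 P-type pump (lower) and 2 V-type subunits (lower). Of all genes 4.95% were higher and 4.82% lower at that limit. At 0.5 mg/kg these were 2 ABC transporters and 1 SLCO carrier (higher), and 1 ABC transporter, 2 P-type pumps and 1 V-type subunit (lower). There 3.83% of all genes were higher and 4.42% lower. Median log2 fold changes at 5 mg/kg were 0.02, -0.03, -0.23, -0.23 and -0.05 for the ABC, SLCO, P-type, aquaporin and V-type genes in turn.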

How the data were processed

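Estimated counts for each transcript were deposited by the authors, and the submitters' processing notes name kallisto. Its version, the transcriptome release and whether strand was used: not given in the sources used here. Kallisto shares reads between similar transcripts, so counts of near-identical carriers are uncertain. The 47418 transcript rows were summed by NCBI gene number into 20308 genes and rounded, which moved a gene by at most 0.5. Symbols and chromosomes came from the NCBI table of Coturnix japonica 2.1, which matched 18900 genes. The authors' genome build is unknown, so no coordinates are given. SLC2A3, SLC3A2, SLC22A5, SLC27A2, SLC47A1 and SLC10A1 were not analysed here under those symbols.

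Genes were filtered by filterByExpr (minimum count 10, minimum total 15), scaled by TMM (factors 0.876 to 1.305) and fitted with edgeR 4.0.16 in R 4.3.3 by quasi-likelihood over all 16 libraries and 3 groups. P-values were adjusted by the Benjamini-Hochberg method over 13748 genes, with a threshold of 0.05. Membership used CPM of the column totals, and CPM values in the text use TMM-scaled totals. Library totals were 15172994 to 46192717, so members near 1 CPM are the least precise. Intervals are the log2 fold change ± 2.16 SE, from 13 residual degrees of freedom. Log2 CPM used a prior count of 2. Levels are not per length and are not compared between genes. Alternatives used limma 3.58.1 (voom), DESeq2 1.42.0, RLE scaling, no filter, a limit of 5 CPM, single birds left out, the compared groups alone, a replicate block and the number classes. No label says that each replicate is a separate bird beyond its number, so p-values measure the spread between these samples. Within groups, log2 CPM correlated at 0.928 to 0.968 over 35 pairs.

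The members, the lists and the naming rule were chosen with earlier results of these data known. The share among genes of at least 1 CPM was added after the results were seen. The rule took, per comparison, the 8 higher and 8 lower members with the lowest p, the 12 with the highest mean, liver landmarks, the 6 widest among solvent birds and the 3 on each side of the limit. Members named beside these as neighbours, or for a role, were chosen after their values were seen, as were those in the plots. Roles follow gene families; SLC4A1AP was put with the symbols of non-carriers after the names were seen. Some members are not reported here by name.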

Additional observations from a re-analysis of the deposited data

Results flagged for a closer look

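Within each dose group, the highest and lowest bird of each of the 75 named members was compared with the others on log2 CPM by Dixon's criterion. Of 225 such groups 11 held a bird that stood apart, 2 high and 9 low, where chance alone marks about 1 in 20. Solvent bird 1 was low for SLC19A1 (29.5 CPM), SLC43A3 (74.5 CPM) and SLC6A6 (70.8 CPM), solvent bird 5 was low for SLC35B3 (5.44 CPM), and solvent bird 6 was low for SLC38A2 (117 CPM). Solvent bird 2 was high for SLC38A3 (723 CPM). At 0.5 mg/kg, bird 2 was low for SLC13A5 (0.204 CPM) and SLC7A1 (2.65 CPM). At 5 mg/kg, bird 1 was high for SLC41A2 (27.6 CPM), bird 3 was low for SLC6A2 (0 CPM) and bird 4 was low for SLC25A1 (359.8 CPM).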

How the results depend on the processing

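In the dose comparisons, edgeR called 0 members under every alternative run with it, and so did limma-voom. DESeq2 called 2 members at 5 mg/kg against solvent (SLC66A2 and SLC45A3) and 0 in the other dose comparisons. In the comparison of number classes, over members not placed on Z, the count was 2 with DESeq2, 0 to 1 when single birds were left out and 0 otherwise. Members at an unadjusted p under 0.05 numbered 36 at 5 mg/kg against solvent, 23 to 37 when single birds were left out, 21 in birds 1 to 3 alone and 18 in birds 4 to 6 alone. At 0.5 mg/kg against solvent they numbered 24, with 15 to 28, 13 and 7 in the same order. At 5 mg/kg against 0.5 mg/kg there were 16, with 10 to 30 when single birds were left out. Between the classes there were 21, with 14 to 24 when single birds were left out and 11 in solvent birds alone. Fewer birds enter each of these fits, and the cause was not tested. SLC26A2 at 5 mg/kg against 0.5 mg/kg turned from 0.43 to -0.01 on the log2 scale in birds 4 to 6 alone. Other members changed sign too, with values given above. Among them were SLC16A1, SLC25A6 and SLC19A2 at 5 mg/kg against solvent in birds 4 to 6 alone, and SLC13A5 at 5 mg/kg against solvent without solvent bird 1. The labels do not say whether replicate numbers pair the birds. Deviations of same-numbered birds correlated at -0.0842 to 0.203 (median 0.0237), above 0.1 in 2 of 15 pairs. Those of differently numbered birds correlated at -0.191 to 0.198 (median 0.00214), above 0.1 in 4 of 70 pairs. Correlations over so few same-numbered pairs cannot decide whether the birds were paired. With the replicate block 0 members were called, and 26, 28 and 16 members stood at an unadjusted p under 0.05 at 5 mg/kg and 0.5 mg/kg against solvent and between the doses. In the 5 mg/kg group, replicates 4 and 5 came from tubes numbered 5 and 6. By tube number, a pairing tried after the results were seen, correlations were -0.0842 to 0.203. They lay above 0.1 in 1 of 14 pairs, against 5 of 71 pairs of unlike tube number. The counts were 31, 20 and 12 in the same order, with 0 called. Shares of all genes in the single-bird, block and tube fits are not given, so these counts cannot be set against all genes.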
